A study of Mus musculus with 4 samples.

Results

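Interferon-stimulated genes are the effectors that a cell switches on after interferon binds its receptors. Type I interferon signals through Ifnar1 and Ifnar2 to a complex that includes Stat2 and Irf9 and binds the interferon-stimulated response element (ISRE) in promoters, while Ifng acts through Ifngr1 and Ifngr2. Many of these genes keep a low basal level in lymphocytes without infection, and plasmacytoid dendritic cells (pDC) are known for high levels of Irf7 and Bst2. The 8 genes described here, of 31053 in the count tables, were Isg15, Ifit3, Irf7, Ifi27l2a, Bst2, Usp18, Rtp4 and Oasl2. They were chosen by name and followed across cell types and genotypes.

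Germinal centers (GC) were raised with sheep red blood cells, and 10 days later splenic B220+IgD- cells were sorted for droplet single-cell RNA-seq. Mice were 8-week-old females on a C57BL/6J background. All of them carried 1 Cγ1-cre allele, with no floxed allele in WT, Crebbp fl/+ in C, Kmt2d fl/+ in K, and both floxed alleles in CK. Cγ1-cre is active in B cells that enter the GC, so T cells and most B cells outside the GC are not expected to have lost a floxed allele. Each genotype was 1 mouse and 1 library, so genotype differences have no replicate check and were not tested, and every interval given is a 95% interval for counting error. Cell classes recur in all 4 mice and were tested across them. Sets of 4 values run from WT over C and K to CK.

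Subtype names for 9804 GC B cells came with the data, as early centroblast (CB), CB, transitioning, centrocyte (CC), recycling or prememory cells. Other cells were placed in clusters made without interferon genes and named from lineage markers. They gave 3569 non-GC B-like cells (Fcer2a, Cr2), 7120 T-like, 215 pDC-like, 255 natural killer (NK)-like and 234 plasma-like cells. Cluster 0 (4389 cells) held all 6 pan-B and 6 non-GC B markers. Its leading genes included Ly6d, listed as a pDC marker, and none of the B markers. Ly6d was also among the leading genes of the non-GC B-like cluster led by Fcer2a, and each of the 2 held 1 pDC marker. Cluster 9 (1283 cells), led by Ccl5, held 9 T markers but had Nkg7, listed as an NK marker, among its leading genes. Clusters 0 and 9 stayed unnamed and are given by number. Of 578 annotated prememory cells, 489 lay in non-GC B-like clusters. Libraries held 33270825 to 39803865 unique molecular identifiers (UMIs, each counting 1 captured transcript). Of 38866 barcode sequences, 143 occurred in more than 1 library.

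Isg15 encodes a ubiquitin-like modifier and Usp18 the protease that removes it and restrains the type I receptor. Ifit3 (an RNA-binding complex subunit) and Oasl2 (of the 2′-5′ oligoadenylate synthetase family) act against viral RNA. Bst2 (tetherin) holds budding virions at the cell surface, and Irf7 is a transcription factor for type I interferon genes. Ifi27l2a is a small mitochondrial and nuclear envelope protein, and Rtp4 a receptor transporter that also restrains the interferon response. In GRCm38, Isg15 lies on chromosome 4 from 156199424 to 156200818 and Irf7 on chromosome 7 from 141262706 to 141266481. Ifi27l2a lies on chromosome 12 from 103442167 to 103443680 and Bst2 on chromosome 8 from 71534255 to 71537456, all 4 on the minus strand. Ifit3 (chromosome 19, 34583531 to 34588731), Usp18 (chromosome 6, 121245906 to 121270917), Rtp4 (chromosome 16, 23520291 to 23614222) and Oasl2 (chromosome 5, 114896936 to 114912234) lie on the plus strand. All are protein-coding genes, each on a different chromosome.

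The core of the ISRE, searched as GAAA, any 2 bases and GAAA again on both strands, was present in the RefSeq promoter (GRCm38.p6, 250 bases before to 50 after the start) of 3 of the 5 members with a sequence, Isg15, Ifit3 and Bst2. It was not found in those letters for Irf7 and Oasl2. The share of all 32851 promoters of this length with a match was 3.44%. The 160 bases before the start are shown for the members with a match, on the strand of the gene, with the matches in capitals. Overlapping matches, which share 4 bases, run together:
Isg15 (chr4:156200819-156200978, minus strand): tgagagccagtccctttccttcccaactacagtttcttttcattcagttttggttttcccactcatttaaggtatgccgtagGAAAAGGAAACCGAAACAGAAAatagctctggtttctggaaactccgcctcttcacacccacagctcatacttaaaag
Ifit3 (chr19:34583369-34583528, plus strand): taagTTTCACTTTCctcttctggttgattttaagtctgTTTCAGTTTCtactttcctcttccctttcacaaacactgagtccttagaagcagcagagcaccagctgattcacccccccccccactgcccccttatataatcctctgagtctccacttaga
Bst2 (chr8:71537473-71537632, minus strand): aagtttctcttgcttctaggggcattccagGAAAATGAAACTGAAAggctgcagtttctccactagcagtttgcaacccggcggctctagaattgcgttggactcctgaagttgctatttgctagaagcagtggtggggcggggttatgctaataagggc

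Isg15 held 3 matches, which began 78, 72 and 66 bases before the start. Ifit3 held 2 matches on the opposite strand, at 156 and 122 bases, and Bst2 held 2, at 130 and 124 bases.

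Among GC B cells, the members were low and carried mostly by Ifi27l2a. The summed level of the 8 genes, in CPM (UMIs of a gene per 1000000 UMIs of that class and library), was 391, 296, 382 and 231 in CB. The same sum in CC was 171, 231, 244 and 193. In annotated GC B cells as a whole, Ifi27l2a gave 71.7%, 72.0%, 78.8% and 70.5% of these UMIs, so a summed level mainly follows Ifi27l2a.

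Ifi27l2a was lower in CC than in CB. In CB it was at 318, 225, 311 and 167 CPM, and in CC at 108, 135, 175 and 120 CPM. CC were below CB in all 4 libraries, with a log2 fold of -0.77 ± 0.14 (SE, n = 4 mice, edgeR adjusted p = 1.56e-06). Bst2 was at 17.7, 16.8, 15.4 and 15.3 CPM in CB and at 17.0, 22.3, 20.8 and 19.9 CPM in CC. It was higher in CC in 3 of 4 libraries (log2 fold 0.42 ± 0.16, edgeR adjusted p = 0.027), a call that was lost without the C, the K or the CK library and in 4 other settings. Of the 8 members, 1 was higher and 1 lower in CC, against 25.0% and 22.4% of the 9997 genes tested, and the median log2 fold was 0.23 over the members and 0.047 over those genes.

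Early CB had less Ifi27l2a and Irf7 than CB. Ifi27l2a was at 80.8 to 178 CPM in early CB of the 4 libraries, below the CB of the same library in each (log2 fold -0.71 ± 0.16, edgeR adjusted p = 2.6e-04). Irf7 was at 8.50 to 25.4 CPM in early CB and 30.8 to 36.4 CPM in CB, with no overlap. Early CB of WT were few, at 38 cells and 235276 UMIs of all genes, so their Irf7 level rests on few UMIs. The log2 fold of Irf7 was -0.74 ± 0.25 (edgeR adjusted p = 0.019), and the adjusted p was 0.054 without WT and 0.23 without CK. These 2 members were lower and none was higher, where 13.9% of all genes tested were lower and 11.9% higher. Between transitioning cells and CB no member passed the edgeR test in either direction, against 14.4% of genes higher and 14.3% lower, and none had an unadjusted p under 0.05. DESeq2 called none either.

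Along the deposited pseudotime rank, cells were split into 4 equal bins within each library. Ifi27l2a stayed between 124 CPM (115 to 134) and 178 CPM (164 to 193) in CK over the 4 bins. In K it was 214 CPM (200 to 228) in the first bin and 273 CPM (252 to 296) in the last, and in C it was 168 CPM (153 to 183) and 293 CPM (266 to 322). The CK level was the lowest of the 4 libraries in 3 of the 4 bins. In the third bin WT, at 161 CPM (141 to 183), was below it, with overlapping intervals. Bst2 was at 13.2 to 18.1 CPM in the first bin and at 22.6 to 40.1 CPM in the last. The bins differ in subtype: prememory cells made up 41.2% of the last bin in WT and 10.5% in CK.

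**Figure D1:**
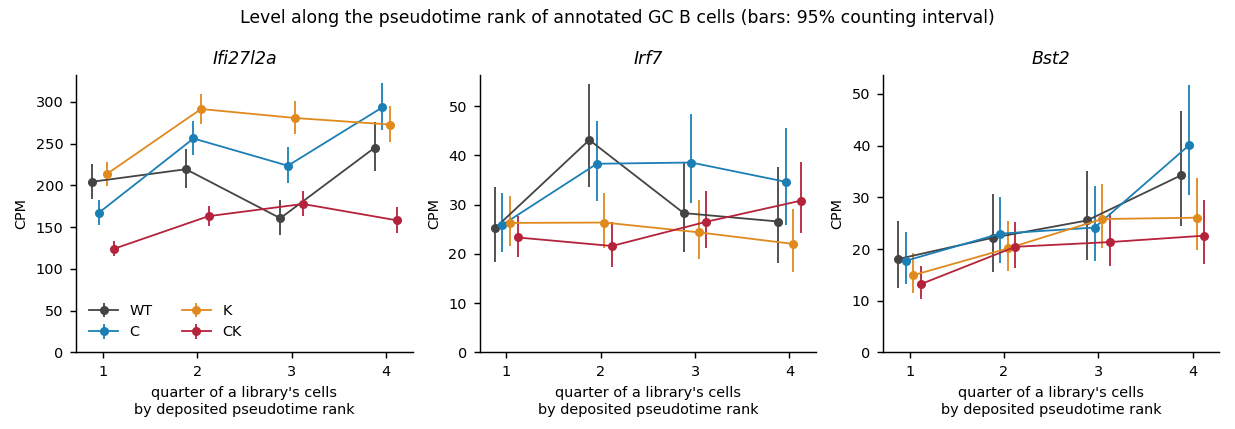
Level in CPM (y axis) of Ifi27l2a, Irf7 and Bst2 in 4 equal bins of each library's annotated GC B cells by deposited pseudotime rank (x axis), with 1 line per library and bars for 95% counting intervals. Ifi27l2a in CK sits below the other libraries except WT in the third bin, and Bst2 is higher in the last bin than in the first in each library.

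Prememory cells stood above CC for 4 of the 8 members. Bst2 was at 81.4, 76.0, 77.7 and 75.1 CPM in prememory cells, against at most 22.3 CPM in CC (log2 fold 1.82 ± 0.18, edgeR adjusted p = 7.2e-14). Ifi27l2a was at 382, 513, 534 and 319 CPM (1.58 ± 0.16, edgeR adjusted p = 6.0e-14), and neither gene overlapped between these classes. Rtp4 was at 11.4, 10.7, 10.1 and 18.8 CPM, from 3 to 7 UMIs a library, against 0.55 to 2.80 CPM in CC (2.73 ± 0.55, edgeR adjusted p = 3.4e-05). Isg15 was at 53.0, 56.3, 30.4 and 15 CPM and did overlap with CC (1.07 ± 0.31, edgeR adjusted p = 0.0036, with 0.070 without WT and 0.059 without C). Irf7 went the other way, at 15.2, 30.4, 16.9 and 7.51 CPM against 22.8 to 40.4 CPM in CC, and did not pass the test (log2 fold -0.68 ± 0.33, edgeR adjusted p = 0.11, with 0.044 without K). Over all genes 17.3% were higher and 18.7% lower, and no member was lower, or had a lower level with an unadjusted p under 0.05 other than Irf7. DESeq2 called 5 members higher and none lower.

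Non-GC B-like cells had more of 7 members than CC in every library. Their summed level was 706 to 1083 CPM, against 171 to 244 CPM in CC. The members' median log2 fold was 2.25, beside 0.077 over all genes, of which 25.1% were higher and 21.5% lower. Ifit3 was at 36.7, 43.0, 86.4 and 49.0 CPM, where CC were at 1.48 to 3.20 CPM (log2 fold 4.44 ± 0.30, edgeR adjusted p = 1.2e-21). Rtp4 was at 19.3, 19.0, 26.9 and 12.3 CPM (3.54 ± 0.33, edgeR adjusted p = 6.4e-15). Both were thus close to the counting floor in CC, with 3 to 8 Ifit3 and 1 to 7 Rtp4 UMIs a library, against 56 to 140 and 14 to 62 in non-GC B-like cells.

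Oasl2 (log2 fold 2.46 ± 0.40), Usp18 (2.33 ± 0.45), Ifi27l2a (2.17 ± 0.13), Bst2 (1.84 ± 0.13) and Isg15 (1.84 ± 0.19) were also higher, with edgeR adjusted p of at most 8.9e-06. Irf7 was the exception, at 33.6, 36.2, 35.3 and 35.9 CPM in non-GC B-like cells against 25.2, 40.4, 22.8 and 27.7 CPM in CC (0.27 ± 0.19, edgeR adjusted p = 0.24). Leaving out any 1 library kept the count at 7 higher and none lower, as did DESeq2, and no member was lower at an unadjusted p under 0.05. The share of cells moved with the level. After each cell was thinned to 1000 UMIs, the median share over libraries of cells with an Ifi27l2a UMI was 32.4% in non-GC B-like cells and 10.0% in CC. Cells with fewer than 1000 UMIs, 71 to 510 a library, were left out. Unthinned, the share was 39.7 to 48.6% and 21.7 to 32.1%, with median depths of 1389 to 2481 and 2670 to 4741 UMIs.

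**Figure D2:**
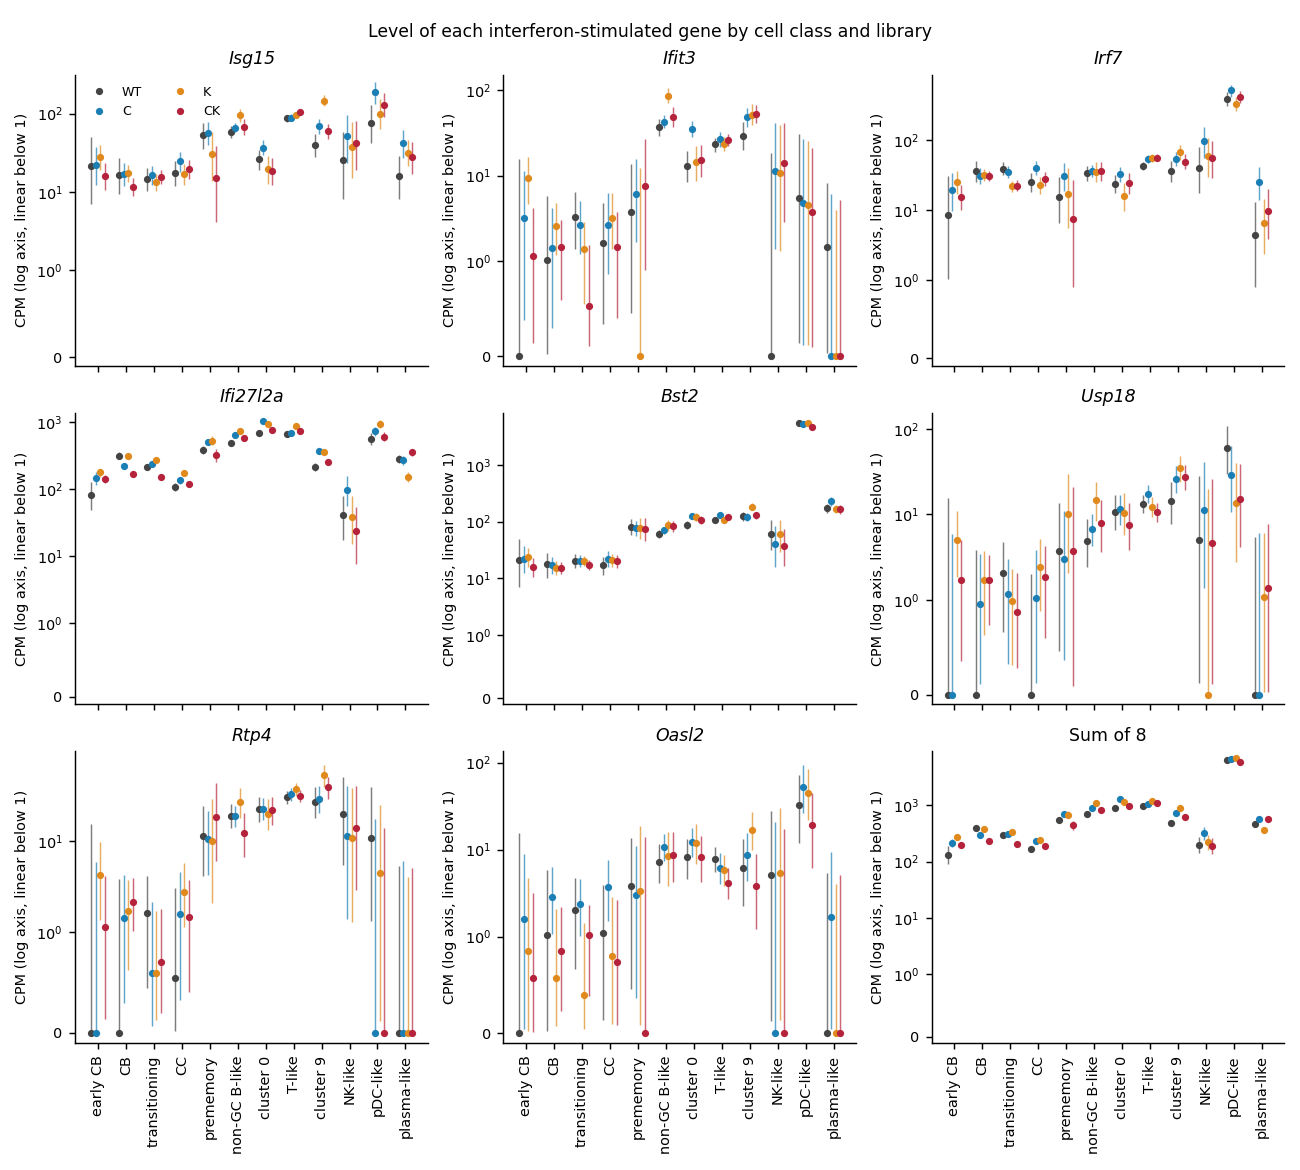
Level in CPM (y axis, log scale, linear below 1) of each member and of their sum in 12 cell classes (x axis), with 1 point per library and 95% counting intervals. Ifit3, Usp18, Rtp4 and Oasl2 lie below 4 CPM in CB and CC and above 4 CPM in non-GC B-like cells, and Bst2 reaches 4614 to 5540 CPM in pDC-like cells.

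Among the other genes of the pathway, on lists chosen by function, targets and receptors were mostly higher in this comparison. The shares over all genes were 25.1% higher and 21.5% lower. Among type I targets, 35 of 45 tested were higher in non-GC B-like cells than in CC and 1 was lower. The largest folds were for Ifit3b, Rsad2 (the antiviral enzyme viperin) and Ifit1, which had 0 to 2 UMIs a library in CC and 10 to 42 in non-GC B-like cells, and Phf11b was lower (log2 fold -0.35). All 5 receptor genes tested were higher, with Ifnar2 (2.25) and Il10rb (1.77) above Ifnar1 (1.71). Of 11 signal genes 5 were higher and 2 lower, where Irf1 (1.59) and Irf9 (1.58) led and Irf8 (-1.07) and Irf5 (-0.63) fell. Among gamma-leaning targets 12 of 17 were higher, among them Gbp7 (4.57) and Gbp5 (3.29), and the immunoproteasome genes Psmb8 (-0.83) and Psmb9 (-0.61) were lower. Of 10 sensors 5 were higher and none lower, with Tlr7 at 3.60, from 3 UMIs a library in CC, and Ddx58 at 3.16. Of 6 restraint genes 2 were higher and 2 lower, among them Socs1 (-2.01).

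In prememory cells against CC the same lists split. Type I targets were higher for 17 of 45 and lower for 5, gamma-leaning targets higher for 7 and lower for 3 of 17, and signal genes higher for 2 and lower for 5 of 11, where 17.3% of all genes were higher and 18.7% lower. Receptors were higher for 4 and lower for 1 of 5. The type I and gamma-leaning genes that were lower were thus no larger a share than among all genes. Pml (2.92) and Ifi203 (2.78) were among the higher type I targets, and Ifnar2 was higher by 2.27. Jak2 (-2.26) and Socs1 (-1.83) were the lowest of their lists. From CB to CC the members did not move together, but 20 of 45 type I targets were higher and 3 lower, and 9 of 11 signal genes and 4 of 5 receptors were higher, where 25.0% of all genes were higher and 22.4% lower. Phf11a (2.18) and Slfn2 (1.99) were among the higher type I targets in that step, and Ifit1bl1 (-1.05) and Ifi209 (-0.74) fell.

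**Figure D3:**
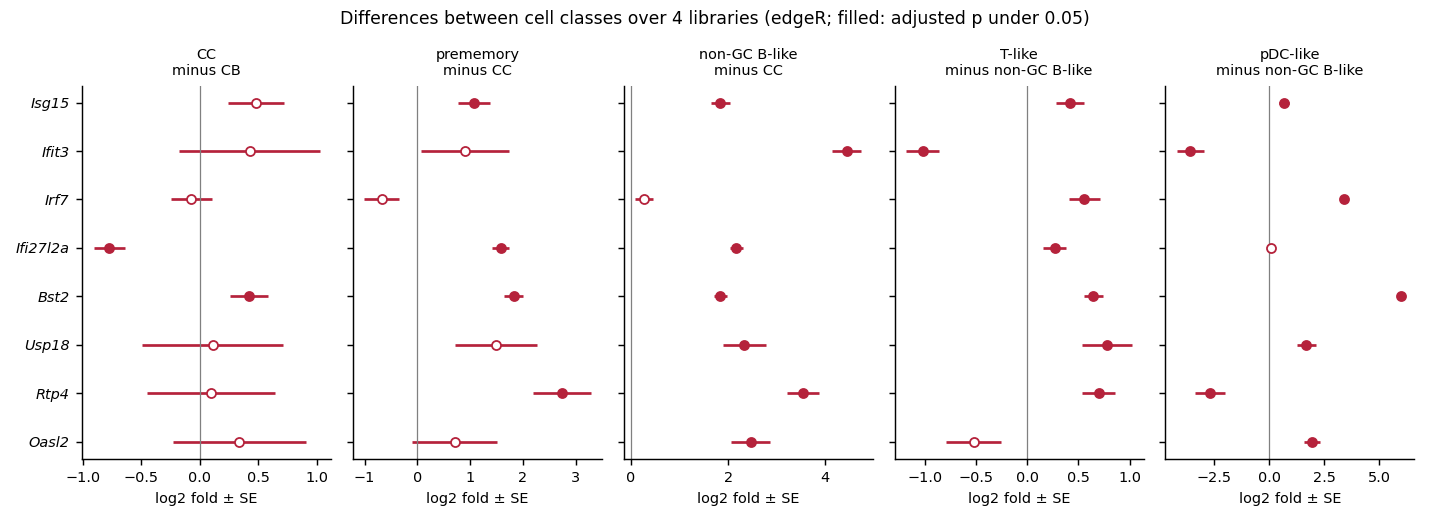
Log2 fold (x axis, ± SE) of each member in 5 comparisons of cell classes over the 4 libraries, filled where the edgeR adjusted p is under 0.05. The points lie right of 0 for 7 called members in non-GC B-like cells against CC, while Ifit3 and Rtp4 lie left of 0 in pDC-like cells.

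Sources of interferon were sparse in these libraries. Of 20 ligand genes, 2 had any UMI. Ifng had 231 UMIs, of which 112 were in T-like cells, 45 in NK-like cells, 25 in cluster 9 and 4 in annotated GC B cells, and Ifnk had 11. No type I interferon gene of the list other than Ifnk had a UMI in any class, at 215 pDC-like cells in all.

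T-like cells had more of 6 members than non-GC B-like cells and less Ifit3. Bst2 was at 106, 131, 105 and 121 CPM, above the 60.9 to 85.5 CPM of non-GC B-like cells (log2 fold 0.64 ± 0.093, edgeR adjusted p = 6.7e-09). Rtp4 (0.70 ± 0.16), Irf7 (0.56 ± 0.15) and Usp18 (0.78 ± 0.24) were also called, with edgeR adjusted p of at most 0.0050. Ifit3 was at 23.1, 26.6, 23.6 and 26.0 CPM, below every non-GC B-like library (-1.02 ± 0.16, edgeR adjusted p = 1.2e-07). Over all genes 26.6% were higher and 26.2% lower.

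The calls for Isg15 (0.42 ± 0.14, edgeR adjusted p = 0.0081) and Ifi27l2a (0.27 ± 0.11, edgeR adjusted p = 0.041) were less firm. Isg15 lost its call without CK, Ifi27l2a without WT, K or CK, and Usp18 without C. DESeq2 called neither Isg15 (adjusted p = 0.12) nor Ifi27l2a (adjusted p = 0.16). Oasl2 was not called (edgeR adjusted p = 0.033 without WT, when it was lower). Counting cluster 0 as B cells and cluster 9 as T cells turned Ifi27l2a to -0.082 and left Ifit3 at -0.22 (edgeR adjusted p = 0.13). Cluster 0 had more Ifi27l2a in each library, at 699 to 1035 CPM against 485 to 731 CPM in non-GC B-like cells, and less Isg15, at 18.7 to 36.7 CPM against 58.6 to 94.8 CPM. In T-like against non-GC B-like cells, type I targets were higher for 12 and lower for 20 of 45. The higher share was thus near, and the lower share above, that of all genes, of which 26.6% were higher and 26.2% lower. The median log2 fold of these type I targets was -0.30. Slfn1 was at 5.77 and Oasl1 at -2.55. Gamma-leaning targets were higher for 14 of 17, with Iigp1 at 77 to 192 UMIs a library in T-like and 0 to 2 in non-GC B-like cells.

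Ifi27l2a varied widely within T-like cells. It was at 385 to 513 CPM in the cluster led by Cd8b1 and Cd8a, at 1247 to 1530 CPM in that led by Sostdc1, Pdcd1 and Cd4, and at 1480 to 1916 CPM in that with Foxp3 and Ctla4 among its leading genes. Bst2 had another order, at 127 to 156 CPM in the first, 65.3 to 91.4 CPM in the second and 96.2 to 138 CPM in the third. Among non-GC B-like cells, Isg15 was at 84.0 to 137 CPM in the cluster led by Cr2 and Cd1d1 and at 35.5 to 50.9 CPM in that led by Fcer2a. Ifi27l2a showed the opposite order there, at 268 to 452 CPM and 611 to 812 CPM. The ranges of Ifi27l2a in the Sostdc1 and Foxp3 clusters overlapped, as did those of Bst2 in the Cd8b1 and Foxp3 clusters, and the others did not. In NK-like cells Ifi27l2a was at 23.4 to 96.5 CPM.

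pDC-like cells had the highest Bst2 and Irf7 of the named classes. Bst2 was at 5375, 5201, 5540 and 4614 CPM (log2 fold 6.01 ± 0.090 over non-GC B-like cells, edgeR adjusted p = 8.5e-64). Irf7 was at 388, 509, 327 and 412 CPM (3.40 ± 0.18, edgeR adjusted p = 2.5e-28). Oasl2 (1.96 ± 0.37), Usp18 (1.70 ± 0.45) and Isg15 (0.68 ± 0.24) were also called, with edgeR adjusted p of at most 0.025. The Usp18 call was lost without WT, and that of Isg15 without C or CK.

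Ifit3 and Rtp4 were lower in pDC-like cells, with 1 Ifit3 UMI in each library and 0 to 2 Rtp4 UMIs. Their log2 folds were -3.58 ± 0.61 (edgeR adjusted p = 1.2e-06) and -2.68 ± 0.67 (edgeR adjusted p = 9.8e-04). Over all genes, 15.4% were higher and 16.1% lower in pDC-like cells. Type I targets split into 11 higher and 12 lower of 45, with Ifitm3 (2.97) and Lgals3bp (2.68) among the higher and no Ifit3b UMI in pDC-like cells, and Ifnar2 (2.87) and Irf8 (3.32) were higher.

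Free RNA was read from lineage genes. The level of Cd3e in annotated GC B cells was 0.17 to 0.44% of that in T-like cells, and that of Cd79a in T-like cells was 4.13 to 5.29% of that in annotated GC B cells. Siglech, a pDC gene, reached at most 0.041% of its pDC-like level in B-like and T-like cells, where Bst2 reached 0.37 to 2.63%. In annotated GC B cells, Irf7 was at 44.0 to 73.0%, Ifi27l2a at 20.2 to 32.8% and Rtp4 at 5.05 to 5.93% of the T-like level. No class in the sort is known to lack the members, so a background for them cannot be set.

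In non-GC B-like and T-like cells, the members tended to sit in the same cells. Both classes pool clusters that differ in the level of the members, and co-occurrence was not taken within clusters. The part of that mix in the ratios was not tested. At 1000 UMIs a cell, non-GC B-like cells with a Bst2 UMI had more UMIs of the other 7 members than those without. The ratios were 3.11 (2.46 to 3.89), 2.32 (1.97 to 2.73), 3.10 (2.48 to 3.84) and 4.14 (3.38 to 5.05). For Isg15 in T-like cells it was 2.34, 2.07, 2.98 and 2.80. For Ifi27l2a in CB the ratios were 4.29 (1.091 to 17.77), 2.833 (1.285 to 5.933), 2.436 (1.398 to 4.189) and 2.169 (1.231 to 3.678). In CC, cells with an Ifi27l2a UMI had ratios of 1.51 to 2.88, and the interval of each library included 1. In transitioning cells the ratio for Ifi27l2a ran from 0.80 (0.35 to 1.63) in C to 2.82 (1.46 to 5.34) in K, and that for Irf7 in CK was 0.78 (0.28 to 1.73). At least 3 of the 8 members were detected in 2.06 to 3.85% of non-GC B-like cells, in 2.70 to 3.87% of T-like cells and in 11.3% or more of pDC-like cells in each library.

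The genes whose pattern was most like that of the members were ranked over 56 sums of a class in a library, which share libraries and depth. Only genes that reached a minimum CPM in some class of every library were ranked, so genes low in all classes were left out. Npc2 (r = 0.89, a lysosomal cholesterol carrier) and BC147527 (0.88) came first of 4081 genes, followed by Ebpl (0.85), Trim30a (0.84), Ccdc107 (0.84), Jaml (0.83), Tapbp (0.83), Pik3ip1 (0.83), Tmem219 (0.83) and Ifnar2 (0.82). Trim30a is a type I target and Tapbp loads peptide on MHC class I. Each member was set against the mean of the other members, and these values ran from 0.48 for Ifit3 to 0.86 for Oasl2. They are not on the same footing as the r of the ranked genes, which used all members.

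Between genotypes, the summed members were lower in CK than in WT in annotated GC B cells and higher in non-GC B-like and T-like cells. As the log2 ratio of summed CPM over WT, CK was at -0.41 (-0.50 to -0.33) in annotated GC B cells, at 0.26 (0.14 to 0.38) in non-GC B-like cells and at 0.18 (0.13 to 0.24) in T-like cells. C was at 0.13 (0.038 to 0.21), 0.35 (0.26 to 0.44) and 0.097 (0.037 to 0.16) in the same order, and K at 0.20 (0.12 to 0.28), 0.62 (0.51 to 0.73) and 0.32 (0.26 to 0.38). In pDC-like cells CK was at -0.17 (-0.28 to -0.056), below WT, and in NK-like cells at -0.035 (-0.70 to 0.64). WT thus had the lowest sum of the 4 libraries in non-GC B-like and T-like cells, except that C in T-like cells turned to -0.062 with a limit of 5% mitochondrial UMIs. Taken relative to T-like cells, K in annotated GC B cells turned to -0.12. Without Ifi27l2a, the sum of the other 7 in annotated GC B cells was at -0.35 in CK and 0.11 in C, and turned to -0.22 in K.

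The median log2 ratio of all genes was -0.16 for K in annotated GC B cells, -0.17 in non-GC B-like cells and -0.19 in T-like cells, and within 0.03 of 0 for C and CK in each. Relative to it, the summed members of K were at 0.37, 0.79 and 0.51. In K the ratio also moved with transcript length. With genes in 4 equal bins by length, its median in T-like cells was 0.081 in the shortest bin and -0.54 in the longest, and in annotated GC B cells 0.10 and -0.52. For C and CK the longest bin was between -0.026 and -0.077 in all 3 classes. Ifi27l2a (463 bases), Isg15 (756) and Bst2 (792) fall in the shortest bin by their longest transcript. Ifit3 (1745), Usp18 (1771) and Rtp4 (1859) do too, and Irf7 (3240) and Oasl2 (3123) do not. The part of length in the K values was not tested.

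**Figure D4:**
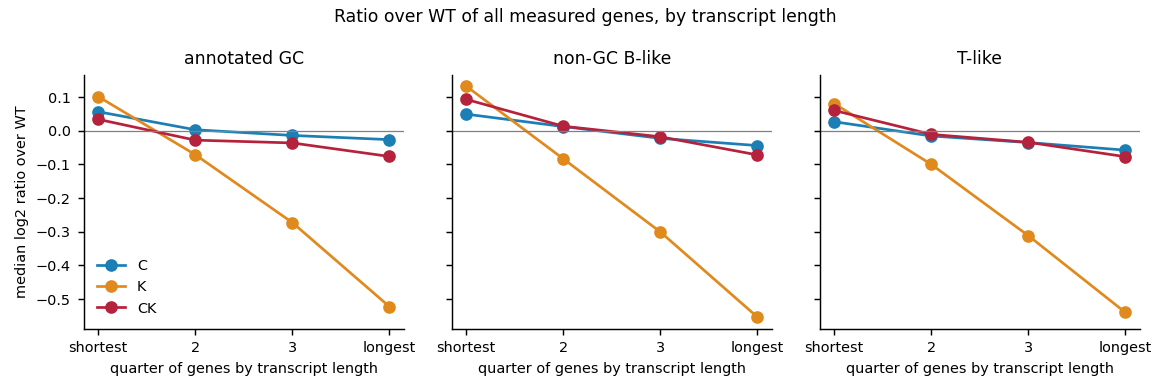
Median log2 ratio over WT (y axis) of all genes with at least 20 UMIs, in 4 equal bins by transcript length (x axis), in 3 cell classes. K falls from about 0.1 in the shortest to about -0.5 in the longest bin in each class, while C and CK stay near 0.

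By subtype, CB of CK had a log2 ratio of the sum over WT of -0.76 (-0.93 to -0.58). For transitioning cells it was -0.50 (-0.64 to -0.37), and for prememory cells -0.31 from 119 UMIs, with an interval that ended just below 0. It was at 0.17 (-0.033 to 0.38) in CC and 0.56 (0.028 to 1.14) in early CB. In GC B-like cells outside the annotation it was at -0.35 (-0.46 to -0.24). Ifi27l2a in CB was at 167 CPM from 787 UMIs in CK and at 318 CPM from 306 UMIs in WT, a log2 ratio of -0.93 (-1.12 to -0.73). In transitioning cells the ratio of Ifi27l2a was -0.50 (-0.66 to -0.34), in CC 0.15 (-0.11 to 0.41), and in prememory cells -0.26 (-0.64 to 0.11). In early CB, where WT had 38 cells and 19 UMIs, it was 0.82 (0.14 to 1.57). GC B-like cells outside the annotation, at median depths of 9542 to 11384 UMIs, gave -0.46 (-0.59 to -0.33). With the subtypes weighted as in WT, the sum in annotated GC B cells of CK was at -0.34.

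Irf7 in transitioning cells had log2 ratios of -0.81 (-1.21 to -0.41) in CK and -0.84 (-1.25 to -0.43) in K, from 127, 111 and, in WT, 96 UMIs. In GC B-like cells outside the annotation it was at -0.11 (-0.47 to 0.25) in CK and 0.66 (0.37 to 0.94) in K. GC B-like cells of K lay in part in another cluster, since cluster 13 held 708 cells of K and 7 to 20 of each other library, and cluster 7 held 33 of K and 403 to 1070 of the others. The part of this in the K values was not tested. In CC the 3 mutants ran from -0.14 to 0.68, and C alone had an interval above 0 (0.14 to 1.24). In annotated GC B cells as a whole, Bst2 in CK was at -0.39 (-0.68 to -0.088), or -0.067 with subtypes weighted as in WT, and Irf7 at -0.33 (-0.58 to -0.067). Isg15 was at -0.32 (-0.65 to 0.011).

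Past 1.5-fold, 2 of 8 members were lower in CK in annotated GC B cells, Ifit3 and Oasl2, each from fewer than 35 UMIs over both libraries, against 9.03% of genes lower. None was higher, against 8.65%. In C, 1 of 7 was higher, Oasl2 (4.95% of genes), and none lower (3.94%). In K, 1 of 7 was higher, Usp18 (5.07%), and none lower (23.6%). The intervals of all 4 of these ratios included 0. In non-GC B-like cells 4 of 8 were higher in K (4.48% of genes), namely Isg15 (0.69), Ifit3 (1.24), Ifi27l2a (0.59) and Usp18, which was at 14.9 CPM against 4.92 CPM in WT, and none was lower (24.9%). CK had 1 higher, Usp18, and 1 lower, Rtp4 (5.56% and 8.62%), both with intervals that included 0, and C none in either direction (4.19% and 5.29%). In T-like cells no member was past 1.5-fold in C or K (2.95% and 2.11% of genes higher, 5.59% and 23.5% lower), and 1, Oasl2, was lower and none higher in CK (5.06% and 3.42%).

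**Figure D5:**
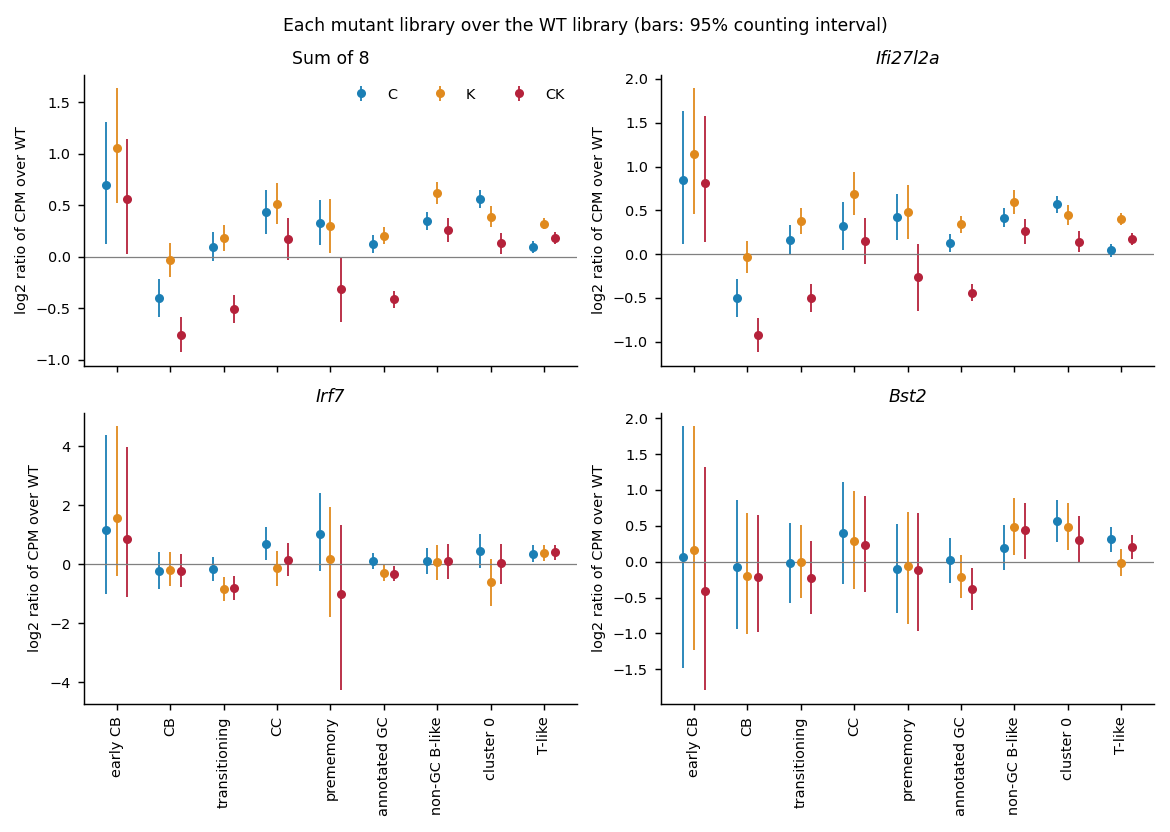
Log2 ratio of CPM over WT (y axis) of the sum and of Ifi27l2a, Irf7 and Bst2 in 9 cell classes (x axis) for C, K and CK, with 95% counting intervals. CK lies below 0 for the sum and Ifi27l2a in CB and transitioning cells and above 0 in non-GC B-like and T-like cells.

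Many other pathway genes were lower in K and CK than in WT in annotated GC B cells, where 23.6% of all genes in K and 9.03% in CK were past 1.5-fold lower. Receptors past 1.5-fold lower numbered 5 of 5 in K, 3 of 5 in CK and 0 of 5 in C. Ifnar2 was at 9.23, 8.16, 5.28 and 5.13 CPM, and Ifnar1 at 22.1, 23.9, 12.3 and 16.9 CPM. Gamma-leaning targets were lower for 10 of 15 in K and 8 of 16 in CK, and type I targets for 20 of 36 and 11 of 37, with 1 type I target higher in each. These counts pool the subtypes, whose shares differ between libraries, and the part of that mix was not tested. In CK, receptors were lower for 3 of 5 in CB, 0 of 5 in transitioning cells and 1 of 5 in CC. The median log2 ratio of type I targets in CK was -0.33 in annotated GC B cells. It was -0.18 in CB, -0.22 in transitioning cells and 0.0044 in CC. In K it was -0.67, -0.53, -0.77 and -0.39 in the same order. In T-like cells of CK, 1 of 20 gamma-leaning targets, 1 of 49 type I targets and 0 of 5 receptors were lower, against 5.06% of all genes. In those of K, receptors were lower for 0 of 5, gamma-leaning targets for 10 of 20 and type I targets for 10 of 46. Against 23.5% of all genes, the type I share was near that of all genes. In non-GC B-like cells of K, the counts lower were 1 of 5, 1 of 13 and 10 of 40, against 24.9% of all genes. There 6 type I targets and 1 gamma-leaning target were higher, against 4.48%. Median transcript lengths of the lists were 2884 bases for gamma-leaning targets, 3274 for type I targets and 3378 for receptors.

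The targeted genes could not check the genotypes, since the reads count 3′ ends, which may lie outside the deleted exons. In annotated GC B cells, Crebbp was at 68.4, 43.0, 38.6 and 38.0 CPM, and Kmt2d at 18.5, 21.3, 9.85 and 15.1 CPM. In T-like cells Crebbp was at 81.1, 79.9, 48.7 and 64.0 CPM.

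Some members have close copies whose reads the counting could split. Ifit3b followed Ifit3, at 8.06, 12, 28.8 and 16.6 CPM in non-GC B-like cells. Oasl1 was at 13.4 to 20.4 CPM there. Ifi27l2b had no UMI in these classes, while Ifi27 was at 155, 148, 176 and 136 CPM in T-like cells.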

How the data were processed

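The authors sorted B220+IgD- cells after magnetic pre-enrichment, made 1 droplet 3′ library per genotype and counted UMIs with Cell Ranger (3.0 per the submitters' processing notes, 3.0.2 per the file headers) on mm10. The deposited matrices hold raw UMI counts per gene and barcode, with no normalization. The deposited cell table of GC B cells gives UMI and gene counts, the percent of mitochondrial UMIs, subtype names and a pseudotime rank, which is a score. The authors named subtypes in Seurat (4.0) by transfer from other data sets. Whether that transfer used interferon genes is not given in the sources used here.

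The members and lists were chosen with earlier results of these data known. Barcodes below 8% mitochondrial UMIs or with an annotation were kept (31718) and clustered (scanpy 1.11.5, igraph 0.11.9, 2000 variable genes, 30 components, 15 neighbours, resolution 1.5) without 137 interferon genes, immunoglobulin and mitochondrial genes. A marker counted where it reached 25% of its highest cluster level. Clusters were named from at least 3 and at least 50% of a class's markers, with exceptions for leading genes of another class and for doublets. UMI counts in the table equalled those of the matrices for 79.9% of 9804 annotated cells and differed by at most 5. Scrublet marked 3.37 to 4.96% of barcodes, which were kept in the main values. Its automatic threshold marked none in C, so the mean of the other libraries' was used there (0.208).

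Counts were summed per class and library and given as CPM of that sum with exact Poisson intervals. Class contrasts used edgeR 4.0.16 (quasi-likelihood test, TMM, filterByExpr, library as a block, Benjamini-Hochberg over 9997 genes, threshold 0.05) in R 4.3.3 on classes with at least 30 cells in each library, and DESeq2 1.42.0 as an alternative. Libraries pair by mouse, since each gives every class. All such classes entered the same fit, so classes outside a contrast also shaped its estimate of spread. The SE was derived from the log2 fold and the F statistic. Ratios over WT have exact conditional binomial intervals, with at least 20 UMIs over both libraries for a gene to enter the background. Shares have Clopper-Pearson intervals. Intervals cover counting error only. The class contrasts and the ratios over WT were tested on simulated counts, and the other steps were not. Named genes were the members, ligands with a UMI, at most 3 genes a direction per list and contrast, the 10 most alike, Cd79a, Cd3e, Crebbp, Kmt2d and close copies of members. Siglech was added after its values were seen. Positions are from GENCODE vM21 (GRCm38). Alternatives covered scaling, filters, doublets, thinning, class definitions and each library left out. Counting clusters 0 and 9 with their nearest class and weighting subtypes as in WT were chosen after seeing the data.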

Additional observations from a re-analysis of the deposited data

Results flagged for a closer look

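Some ratios over WT lay on opposite sides of 0 in 2 cell classes, with both counting intervals off 0. The difference between classes was not tested in any of them, since each genotype is 1 library. For CK, the summed members were at 0.26 in non-GC B-like and 0.18 in T-like cells against -0.41 in annotated GC B cells. Ifi27l2a was at 0.26 and 0.17 against -0.44, and Bst2 at 0.44 and 0.20 against -0.39. Irf7 was at 0.40 in T-like cells of CK against -0.33 in annotated GC B cells, and at 0.38 against -0.30 in K. The CK values of Irf7 were near 0 in GC B cells when cells were thinned (0.013) or taken from GC B-like clusters (0.0014). The CK value of Bst2 in annotated GC B cells was near 0 with subtypes weighted as in WT.

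Cluster 20, which no comparison uses, held 44 cells, all from CK, at a median of 620.5 UMIs, and its leading genes were Ccl2, Cxcl5, Ccl7, Timp1 and Dcn. Its summed members reached 3621 CPM from a total of 29274 UMIs. Isg15 was at 1332 CPM (947 to 1821), Bst2 at 888 CPM (580 to 1301) and Irf7 at 615 CPM (364 to 972), while Ifi27l2a was at 171 CPM (55.5 to 399). Isg15 was above its level in every named class.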

How the results depend on the processing

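Each genotype is 1 library, so no genotype ratio could be recomputed without a replicate. For the summed members over WT (log2), thinning to 1000 UMIs gave 0.39 for C and -0.20 for CK in annotated GC B cells (K 0.42), 0.21 for C in non-GC B-like cells, and 0.010 for C and 0.076 for CK in T-like cells. Median-ratio scaling gave K 0.37, 0.79 and 0.51 in annotated GC B, non-GC B-like and T-like cells. A limit of 5% mitochondrial UMIs gave 0.34 (K) and -0.28 (CK) in annotated GC B cells, 0.55, 0.83 and 0.58 (C, K, CK) in non-GC B-like cells, and -0.062, a reversal, 0.080 and 0.097 in T-like cells. GC B-like clusters in place of the annotation gave 0.37 (K) and -0.22 (CK). Relative to T-like cells, annotated GC B cells were at 0.028 (C), -0.12 (K, reversed) and -0.60 (CK), and non-GC B-like cells at 0.25, 0.30 and 0.078. Without Ifi27l2a, K reversed to -0.22 in annotated GC B cells and was at 0.12 in T-like cells, and C was at 0.18 in non-GC B-like and 0.21 in T-like cells. With clusters 0 and 9 added, C was at 0.44 in non-GC B-like and K at 0.38 in T-like cells.

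Single members that reversed over WT were Irf7 in annotated GC B cells (GC B-like clusters: 0.29 in K, 0.0014 in CK; thinned: 0.013 in CK), Ifi27l2a in K relative to T-like cells (-0.067), and Isg15 in K non-GC B-like cells at 5% mitochondrial UMIs (-0.16). After thinning, Irf7 in C (-0.048) and Isg15 in CK (-0.063) reversed in T-like cells. Clusters 0 and 9 reversed Irf7 in non-GC B-like cells against CC (-0.021), Ifi27l2a in T-like against non-GC B-like cells (-0.082) and Ifi27l2a in pDC-like cells (-0.14, and -0.044 after thinning). The cause was not tested in any of these. Fewer UMIs or cells limit the thinned and the 5% settings.

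Class contrasts carried the library, which is the mouse, as a block. Without the block, 2 members in place of 6 were higher in T-like than in non-GC B-like cells, 0 in place of 1 were higher in CC than in CB, and 1 in place of 2 was lower in early CB. In CC against CB, 2 members were higher with no filter, with only the 2 classes in the fit and with clusters 0 and 9, and 0 without doublets, thinned or under 2500 genes. In early CB 1 was higher, and in transitioning cells 1 lower, with only the 2 classes, and in transitioning cells 1 was higher with clusters 0 and 9. In prememory cells 1 was lower with no filter and with only the 2 classes. In T-like against non-GC B-like cells, 2 were lower with only the 2 classes and 0 with clusters 0 and 9. In pDC-like cells 3 were higher after thinning and 1 lower with only the 2 classes. Leaving out each library in turn gave 0 to 1 members higher in CC than in CB, 1 to 2 lower in early CB, 0 to 1 lower in transitioning cells, 3 to 4 higher and 0 to 1 lower in prememory cells, 4 to 5 higher and 1 to 2 lower in T-like cells, and 4 to 5 higher in pDC-like cells.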

Other observations

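Plasma-like cells combined high Bst2 with low levels of most other members. Bst2 was at 172, 228, 169 and 165 CPM in WT, C, K and CK, above the T-like level in each library, and Ifi27l2a at 282, 270, 154 and 359 CPM. Irf7 was at 4.4 to 25 CPM, and Ifit3, Usp18, Rtp4 and Oasl2 had at most 1 UMI in any library. These cells had median depths of 9934 to 15735 UMIs, and a ratio of K over WT for Ifi27l2a of -0.87 (-1.19 to -0.55), opposite in sign to that in T-like cells (0.41). The difference was not tested.

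Cluster 9, led by Ccl5, Ly6c2 and Nkg7, had Usp18 at 14.2, 26.2, 34.8 and 27.3 CPM and Ifit3 at 29.5, 48.5, 51.8 and 53.1 CPM in the same order, above the T-like level of the same library in each. The ranges overlapped with those of the T-like cluster led by Cd8b1 and Cd8a, with Usp18 at 15.6 to 22.3 CPM and Ifit3 at 29.5 to 38.7 CPM. Ifi27l2a in cluster 9, at 217 to 369 CPM, was below the T-like range of 667 to 883 CPM.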
